A study of Homo sapiens with 18 samples.

Results

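The genes described here act in retinoic acid signalling: the retinol uptake receptor STRA6, the retinaldehyde reductase DHRS3, the binding proteins CRABP1 and CRABP2, the receptors RARA, RARB, RARG and RXRA, and the retinoic acid hydroxylases CYP26A1 and CYP26B1. These 10 genes were selected by symbol with the measured differences between sodium propionate (SP) and control in view. Those differences chose the genes, so their values are given as a description. A gene is called here when the fit across all genes gave it an adjusted p under 0.05, and for these 10 genes such calls, and their loss in other settings, describe the fit and support nothing. All 10 were found by Ensembl identifier among the 61541 genes listed in each count table. All 10 also passed the filter on low counts in both tables, where 17377 and 17775 genes were tested.

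RNA was measured by sequencing in A549, a cell line from a lung adenocarcinoma labelled as wild type and kept in high glucose DMEM with fetal bovine serum. The cells received SP, the sodium salt of a short chain fatty acid, at 5 mM for 3 h, 24 h, 3 days or 12 days, and untreated control cells were collected at 24 h and at 3 days. Each of these 6 groups had 3 libraries. SP 3 h and SP 24 h were compared with the 24 h control in a table of their own, and SP 3 days and SP 12 days with the 3 days control in another. The 3 h and 12 days samples had no control of the same age, so SP and time in culture cannot be told apart there. The study calls the RNA-seq libraries of the early times biological replicates. The labels do not say which cultures the libraries came from, so p-values measure the spread between these libraries.

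Cells take up retinol, oxidise it to retinaldehyde and then irreversibly to retinoic acid, while reductases and esterifying enzymes return it to storage. Retinoic acid is carried by CRABP proteins and binds RAR and RXR, which sit as heterodimers on direct repeats of a short half-site and exchange corepressors for coactivators when ligand binds. Several genes of this route, among them RARB, CYP26A1, DHRS3, STRA6 and CRABP2, are known as retinoic acid targets, and vitamin A is known for its part in the differentiation of airway epithelium.

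The best known retinoic acid response elements lie in the promoters of RARB and CYP26A1, and they are shown because both genes are known retinoic acid targets that took different courses below. RefSeq promoter windows of GRCh38.p14, 250 bases before to 50 bases after an annotated start, were searched on both strands for a pair of half-sites spaced by 5 bases (DR5) or by 2 bases (DR2). Each half-site could read AGGTCA or the variant AGTTCA or the G-rich forms GGGTCA or also GGTTCA, and no other motif was searched. All 10 genes had a window, 23 windows in all, and DR5 matches lay in windows of RARB and CYP26A1. Capitals mark the half-sites, the spacer and flanks are in lower case, and each is written 5′ to 3′ on the strand where the repeat reads as given:
RARB: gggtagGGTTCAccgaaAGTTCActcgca
CYP26A1: acaattAGTTCAcccaaAGTTCAtcttta
The RARB match occupied chr3:25428210-25428226 on the plus strand, 53 to 37 bases before the annotated start of the window, and lay in an untranslated exon of 3 other annotated RARB transcripts. The CYP26A1 match read on the minus strand at chr10:93073803-93073819, 90 to 74 bases before the start, inside an untranslated exon of 1 other CYP26A1 transcript. A DR5 occurred in 31 of 35116 windows of all genes (0.088%) and a DR2 in 14 (0.04%), with 0 DR2 matches in the windows of these 10 genes. A match describes letters in the window and shows no binding.

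Counted reads ranged from 14187401 to 43765330 per library in the 24 h table and from 15425281 to 21992046 in the 3 days table. The A549 label was checked with markers: KRT8 lay at 3691 to 8665 CPM (read counts relative to the TMM-scaled library size) and ALDH1A1 at 4071 to 9004 CPM in the 3 days table, and CDKN2A, deleted in this line, had 0 reads in all 18 libraries. Defining markers of alveolar type II cells were near 0, with SFTPC at 1.22 CPM and NKX2-1 at 1.91 CPM at most. Of 4 markers of other cell types, PTPRC of leukocytes, PECAM1 of endothelium and DCN of fibroblasts reached 0.0956, 0.670 and 0.299 CPM. The fourth, the collagen gene COL1A1 of mesenchymal cells, lay higher and moved with SP, at 5.61 to 21.4 CPM in the 24 h control, 17.9 to 37.8 CPM at SP 3 h and 61.1 to 88.6 CPM at SP 24 h. In the 3 days table it had 13.1 to 13.5 CPM in the control, 56.2 to 66.6 CPM at SP 3 days and 28.7 to 50.8 CPM at SP 12 days, and its part in the results was not tested. Epithelial markers moved with SP too. CDH1 had 153 to 163 CPM in the 3 days control, 394 to 434.5 CPM at SP 3 days and 357.5 to 387 CPM at SP 12 days. EPCAM had 8.94 to 10.5 CPM, 23.4 to 27.2 CPM and 44.9 to 66.4 CPM in the same groups. All libraries of SP 24 h, 3 days and 12 days lay above their control in CDH1, EPCAM, KRT8 and KRT18. The 24 h table had the wider spread between libraries of a group (common biological coefficient of variation 0.199, against 0.0996). Its libraries also stood apart in GC content: the log2 level changed with each 10 points of transcript GC content by −0.35, −0.21 and 0.15 in the 3 controls and by −0.01, 0.08 and −0.24 at SP 3 h. At SP 24 h these slopes were 0.07, 0.21 and 0.28. In the 3 days table they were −0.10, −0.17 and −0.004 in the control and 0.05, 0.09 and 0.12 at SP 3 days. The SP 12 days libraries had −0.03, −0.02 and 0.05. The exons of RARA (61.9% GC), STRA6 (61.2%), RXRA (60.6%) and RARG (60.2%) are rich in GC, and RARB (40.2%) is poor in it, so values corrected for GC content and length, called GC trend removed, are given beside theirs. The slopes differed in part between SP and control, so removing the trend may also remove differences with SP that go with GC content. A technical trend and such a difference cannot be told apart here.

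In untreated A549 cells the 10 genes covered a wide range of levels per length, given here as CPM per kb of exon. The length covers the exons of all annotated transcripts of a gene, so ranks between genes may depend on which transcripts the cells make. DHRS3, which reduces retinaldehyde to retinol, stood highest of the 10 at 22.3 ± 1.21 (SD, n = 3) in the 24 h control and 50.7 ± 1.44 in the 3 days control. STRA6 followed in the 3 days control with 18.7 ± 1.65, and RXRA, the shared heterodimer partner, had 9.81 ± 0.562. The other receptors were lower, at 6.89 ± 0.334 for RARA, 6.70 ± 0.398 for RARG and 1.29 ± 0.0711 CPM per kb for RARB. CYP26B1 had 3.99 ± 0.412 and CRABP2 1.39 ± 0.129, and the lowest levels were those of CRABP1 (0.296 ± 0.0832) and CYP26A1 (0.213 ± 0.0721). RARA and RARG overlapped in the 3 days control, and so did CRABP2 and RARB, and CRABP1 and CYP26A1. The tables were normalised separately, so the 2 controls are set side by side only.

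**Figure D1:**
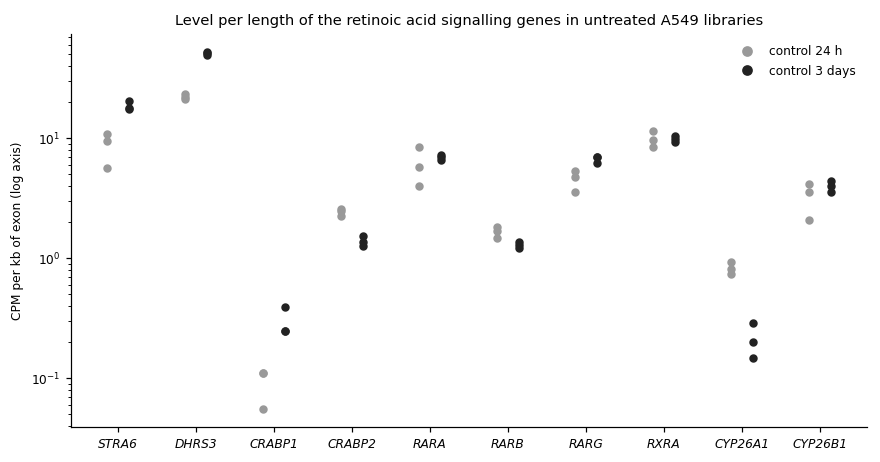
Level per length (CPM per kb of exon, log axis) of the 10 retinoic acid signalling genes in the 3 libraries each of the 24 h control (grey) and the 3 days control (black), 1 point per library. DHRS3 lies at the top, with 50.7 CPM per kb on average in the 3 days control, and CRABP1 and CYP26A1 lie at the bottom.

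The largest differences with SP were higher CRABP2 and CRABP1, from 24 h onward, followed by CYP26A1 at 3 and 12 days, while DHRS3 was lower at 3 h, 3 days and 12 days and RARB was lowest at 3 h. The 3 h and 12 days samples had no control of the same age, so time in culture may enter their values. At 3 h, 2 of the 10 genes were called higher and 2 lower at an adjusted p under 0.05 (edgeR), where 7.39% of all tested genes were called higher and 4.11% lower. At 24 h it was 7 higher and 1 lower, against 16.8% and 12.0% of tested genes. At 3 days it was 8 higher and 1 lower, against 25.2% and 23.3%, and at 12 days 6 higher and 1 lower, against 26.4% and 23.4%. These same comparisons chose the genes, so nothing is read from the counts. The median log2 fold change of the 10 genes was 0.00 at 3 h, 0.85 at 24 h, 0.51 at 3 days and 0.42 at 12 days, beside 0.00, −0.01, −0.02 and −0.00 over all genes tested. The count at 24 h rested on single libraries: of the 8 calls, 4 were left without control 24 h replicate 1, SP 24 h replicate 2 or SP 24 h replicate 3, and 5 without control 24 h replicate 2. Calls over all tested genes went from 5009 to 3546, 2796, 3163 and 4135 in the same order. The comparisons of a table share their 3 control libraries.

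**Figure D2:**
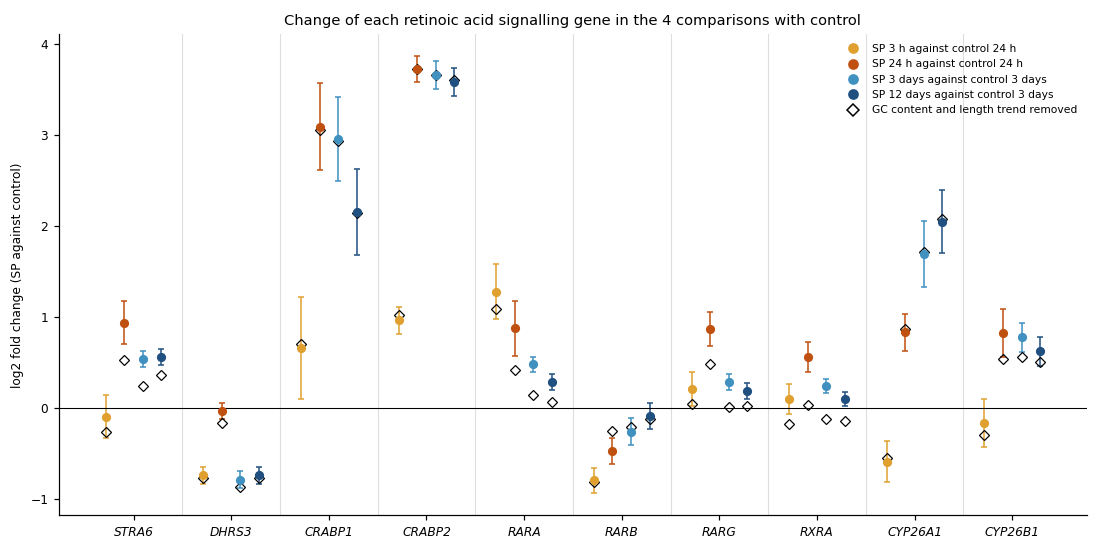
Log2 fold change of the 10 genes (filled points, bars are standard errors) in the 4 comparisons of SP with control, with open diamonds for values corrected for GC content and length in each library. CRABP1 and CRABP2 lie far above 0 from 24 h on with both methods, whereas the diamonds of RARA, RARG and STRA6 lie nearer to 0 than the points from 24 h on and RXRA passes below 0 at 3 h, 3 days and 12 days.

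The binding proteins CRABP1 and CRABP2 carry retinoic acid in the cytoplasm, and CRABP2 hands it to RAR in the nucleus. CRABP2 (ENSG00000143320, chromosome 1, 156699606 to 156705816, GRCh38) stood at 2.81, 2.69 and 2.45 CPM in the 24 h control, at 5.15, 5.58 and 4.77 CPM after 3 h of SP and at 36.6, 30.1 and 38.5 CPM after 24 h. The 3 groups did not overlap and stood in that order. The log2 fold change was 0.97 ± 0.15 (SE) at 3 h and 3.73 ± 0.14 at 24 h, which is 1.95-fold and 13.2-fold. Among the later libraries CRABP2 had 1.48, 1.38 and 1.65 CPM in the 3 days control, 17.5, 19.5 and 20.3 CPM at SP 3 days and 19.2, 17.6 and 17.6 CPM at SP 12 days. Both SP groups lay far above the control and overlapped each other. These are log2 fold changes of 3.66 ± 0.15 and 3.58 ± 0.15, or 12.6-fold and 12.0-fold. Over all alternatives run, the value at 3 h stayed between 0.90 and 1.02, and the later ones between 3.49 and 3.83. No exon of CRABP2 overlaps another gene. In bulk RNA, a change in the number of cells that express a gene and a change in RNA per cell cannot be told apart.

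CRABP1 (ENSG00000166426, chromosome 15, 78340353 to 78348225) was counted from few reads. In the 24 h table the control libraries held 2, 1 and 3 reads, the SP 3 h libraries 3, 4 and 3 and the SP 24 h libraries 18, 32 and 29. Depth differed between them, and relative to depth the 3 groups stood apart, at 0.106, 0.0528 and 0.105 CPM, 0.212, 0.130 and 0.122 CPM and 0.728, 0.716 and 0.979 CPM. The summed reads gave a ratio to control of 1.59 at 3 h (95% counting interval 0.524 to 5.32), so a difference at 3 h was not detectable at this depth. At 24 h the ratio was 8.82 (interval 3.88 to 24.8). In the 3 days table the control held 5, 6 and 4 reads, SP 3 days 38, 30 and 42 and SP 12 days 19, 14 and 42. The SP libraries all lay above the control and the SP groups overlapped each other. The ratios were 7.97 (interval 4.62 to 14.7) at 3 days and 4.60 (interval 2.62 to 8.63) at 12 days. The intervals cover counting error only. Of the exon length of CRABP1, 440 bp (45.9%) are shared with a gene on the opposite strand, and without known strandedness reads of the pair cannot be told apart.

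STRA6 (ENSG00000137868, chromosome 15, 74179466 to 74212267), the membrane receptor that takes retinol from circulating retinol binding protein, stood at 43.7, 72.8 and 82.5 CPM in the 24 h control, 65.5, 74.3 and 46.5 CPM at SP 3 h and 123, 120.3 and 138 CPM at SP 24 h. The 3 h libraries overlapped the control and the 24 h libraries lay above both. The log2 fold change was −0.10 ± 0.24 at 3 h and 0.94 ± 0.24 at 24 h, the latter 0.53 once the GC trend was removed, and its call was lost without SP 24 h replicate 3. Among the later libraries the control held 135, 137 and 158 CPM, SP 3 days 196, 202 and 226 CPM and SP 12 days 202, 203 and 226 CPM. Both SP groups were above the control and overlapped each other. The log2 fold changes were 0.54 ± 0.09 and 0.56 ± 0.09, and 0.25 and 0.37 with the GC trend removed. Of its exons 519 bp (6.8%) overlap CCDC33 on the opposite strand.

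DHRS3 (ENSG00000162496, chromosome 1, 12567910 to 12618210), which returns retinaldehyde to retinol, took another course. It had 74.3, 82.8 and 78.3 CPM in the 24 h control, 49.6, 47.2 and 43.8 CPM at SP 3 h and 77.0, 76.5 and 76.5 CPM at SP 24 h. The 3 h libraries lay below all others, 1.68-fold lower than the control on the fitted scale (log2 fold change −0.74 ± 0.09). At 24 h the SP libraries lay within the range of the control (−0.03 ± 0.09). In the 3 days table the control held 179, 173 and 183 CPM, SP 3 days 103, 104 and 103 CPM and SP 12 days 95.6, 97.4 and 126 CPM. All 6 SP libraries lay below the control, with log2 fold changes of −0.79 ± 0.10 at 3 days and −0.74 ± 0.10 at 12 days. SP 12 days replicate 3 was the highest of the SP libraries, and without it the 12 days value was −0.90. The exons of DHRS3 overlap no other gene.

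**Figure D3:**
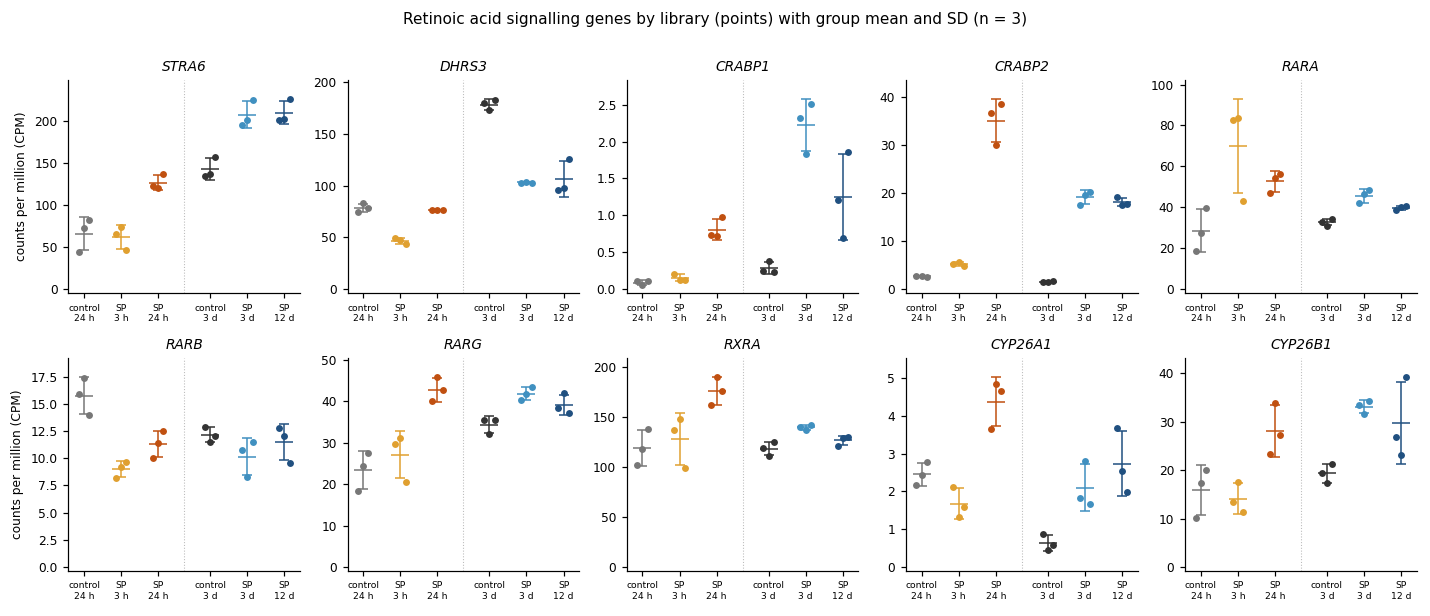
CPM of the 10 genes in each of the 18 libraries (points), with the mean and SD of each group of 3, on linear axes that include 0, and with a dotted line between the 2 tables, which were normalised separately. CRABP2 lies at 1.38 to 2.81 CPM in the controls and at 17.5 CPM or more in every SP 24 h, 3 days and 12 days library, whereas DHRS3 lies below its control at SP 3 h, 3 days and 12 days.

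Of the receptors, RARA (ENSG00000131759, chromosome 17, 40309180 to 40357643) had its largest difference at 3 h. Its levels were 18.8, 27.3 and 39.9 CPM in the 24 h control, 82.5, 83.6 and 43.2 CPM at SP 3 h and 47.0, 54.6 and 56.3 CPM at SP 24 h. All SP libraries lay above all controls, and SP 3 h and SP 24 h overlapped. Within groups the level followed the GC slope of the library: the control highest in RARA had the slope of 0.15 and the SP 3 h library lowest in it that of −0.24. The log2 fold change was 1.28 ± 0.30 at 3 h and 0.87 ± 0.30 at 24 h, and with the GC trend removed 1.09 and 0.42. The call at 3 h was lost with no filter on low counts, with a replicate block, in a fit of the 2 groups alone, and without control 24 h replicate 1 or 2, SP 3 h replicate 1 or 2 or SP 24 h replicate 2, while the value stayed between 1.03 and 1.60. RARA was not called at 24 h, but it was with replicate number as a block among the control 24 h and SP 24 h libraries (log2 fold change 0.92), a fit chosen after seeing the data, with DESeq2 (0.85), without control 24 h replicate 3 (1.19) and without SP 3 h replicate 3 (0.87). Later on it had 32.9, 31.0 and 34.2 CPM in the control, 42.0, 46.4 and 48.2 CPM at SP 3 days and 38.6, 40.4 and 40.5 CPM at SP 12 days. The 3 groups stood apart, with 12 days between the control and 3 days. The log2 fold changes of 0.48 ± 0.09 and 0.28 ± 0.09 became 0.14 and 0.06, neither called, with the GC trend removed, and the 12 days call was also lost without control 3 days replicate 2. Exons of RARA share 1015 bp (21.4%) with 3 genes on the opposite strand, RARA-AS1 among them.

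RARB (ENSG00000077092, chromosome 3, 24687887 to 25597932), the receptor whose promoter holds the DR5 shown above, was lower than the 24 h control at SP 3 h and SP 24 h. It stood at 15.9, 17.3 and 14.0 CPM in the 24 h control, 8.18, 9.21 and 9.66 CPM at SP 3 h and 10.0, 11.4 and 12.5 CPM at SP 24 h. The 3 groups did not overlap, with 3 h lowest and 24 h between it and the control. The log2 fold change was −0.80 ± 0.14 at 3 h, between −0.88 and −0.73 under every alternative run, and −0.48 ± 0.14 at 24 h, where it was −0.25 and not called with the GC trend removed. The 24 h call was also lost with no filter on low counts and without control 24 h replicate 1 or 2 or SP 24 h replicate 1 or 2. Its later levels were 12.9, 11.5 and 12.1 CPM in the control, 10.7, 8.23 and 11.5 CPM at SP 3 days and 12.8, 12.1 and 9.57 CPM at SP 12 days. SP 3 days libraries lay just below the control and SP 12 days libraries overlapped it. Log2 fold changes were −0.26 ± 0.14 and −0.09 ± 0.14.

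RARG (ENSG00000172819, chromosome 12, 53210567 to 53232980) and RXRA (ENSG00000186350, chromosome 9, 134317098 to 134440585) stood above their control at 24 h. RARG had 18.3, 24.5 and 27.5 CPM in the 24 h control, 29.6, 31.1 and 20.5 CPM at SP 3 h and 39.9, 45.8 and 42.6 CPM at SP 24 h. The 3 h libraries overlapped the control and the 24 h libraries lay above both, with a log2 fold change of 0.87 ± 0.19 at 24 h that was 0.48 with the GC trend removed. RXRA had 102, 118 and 138 CPM, 137, 148 and 98.5 CPM and 162, 189.6 and 176 CPM in the same groups. Its 3 h libraries also overlapped the control and its 24 h libraries lay above both. The log2 fold change of RXRA at 24 h was 0.56 ± 0.16, but 0.03 with the GC trend removed, and with replicate number as a block over all 9 libraries its call was lost (0.56), as it was without control 24 h replicate 1 or 2 or SP 24 h replicate 2 or 3. At 3 days both genes lay slightly above the control, RARG at 40.4, 41.7 and 43.4 against 35.6, 32.0 and 35.5 CPM and RXRA at 139.9, 137 and 142 against 119, 111 and 125 CPM. The log2 fold changes were 0.28 ± 0.09 and 0.24 ± 0.07, and with the GC trend removed 0.01 for RARG and −0.13 for RXRA, whose direction turned. With the trend removed neither was called at 3 days, and RARG's call was also lost on leaving out control 3 days replicate 2 or else SP 3 days replicate 3, and RXRA's without control 3 days replicate 1 or 2. At 12 days RARG had 38.3, 41.9 and 37.1 CPM and RXRA 121, 129 and 129.7 CPM, log2 fold changes of 0.18 ± 0.09 and 0.10 ± 0.07, the latter −0.14 with the GC trend removed. Of RXRA's exons 62 bp lie over MIR4669, and those of RARG overlap no gene.

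The hydroxylases CYP26A1 and CYP26B1 clear retinoic acid, and CYP26A1 (ENSG00000095596, chromosome 10, 93073475 to 93077885) lay on different sides of its control at 3 h and 24 h. Its levels were 2.17, 2.43 and 2.77 CPM in the 24 h control, 2.12, 1.33 and 1.59 CPM at SP 3 h and 3.64, 4.83 and 4.66 CPM at SP 24 h. Every 3 h library was below and every 24 h library above the controls, with log2 fold changes of −0.59 ± 0.23 and 0.83 ± 0.21. The summed reads were 110 at 3 h and 444 at 24 h against 166 in the control, ratios of 0.632 (95% counting interval 0.492 to 0.809) and 1.79 (interval 1.496 to 2.155). These intervals cover counting error only and leave out the spread between libraries. CYP26A1 was not called at 3 h, in the main fit or under any alternative run. The 24 h call was lost without control 24 h replicate 1 or SP 24 h replicate 2 or 3. In the 3 days table the control held 18, 7 and 10 reads, SP 3 days 30, 46 and 28 and SP 12 days 58, 51 and 45. All SP libraries had more reads than any control and the 2 SP groups overlapped. Levels were 0.861, 0.439 and 0.591 CPM in the control, 1.83, 2.80 and 1.68 CPM at SP 3 days and 3.67, 2.54 and 1.99 CPM at SP 12 days. Log2 fold changes were 1.69 ± 0.36 and 2.05 ± 0.35, or 3.23-fold and 4.14-fold, and removal of the GC trend left them at 1.71 and 2.08. Of its exons 750 bp (25.3%) are shared with a gene on the same strand.

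CYP26B1 (ENSG00000003137, chromosome 2, 72129238 to 72147862) had 10.2, 17.3 and 20.1 CPM in the 24 h control, 13.4, 17.6 and 11.4 CPM at SP 3 h and 23.3, 33.8 and 27.2 CPM at SP 24 h. The 3 h libraries overlapped the control and the 24 h libraries lay above it. The log2 fold changes were −0.17 ± 0.26 and 0.82 ± 0.26, the latter 0.53 with the GC trend removed. Its call at 24 h was lost in a fit of the 2 groups alone and without control 24 h replicate 1 or 2, SP 3 h replicate 1 or SP 24 h replicate 2 or 3. Later on it had 19.4, 17.3 and 21.3 CPM in the control, 33.4, 31.6 and 34.3 CPM at SP 3 days and 26.8, 23.1 and 39.2 CPM at SP 12 days. Both SP groups were above the control and overlapped each other, with log2 fold changes of 0.78 ± 0.16 and 0.62 ± 0.16. SP 12 days replicate 3 was the highest of all 9 libraries, and without it the 12 days value was 0.35.

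Between the 2 SP times of a table, the 10 genes differed more from 3 h to 24 h than from 3 to 12 days. The same held over all tested genes, so it is no trait of these 10. From 3 h to 24 h 11.7% of all tested genes were called higher and 8.40% lower. From 3 to 12 days it was 4.46% and 3.65%, in a table with another spread. From 3 h to 24 h the fitted log2 differences were 2.76 ± 0.14 for CRABP2, 2.43 ± 0.40 for CRABP1, 1.42 ± 0.22 for CYP26A1, 1.03 ± 0.24 for STRA6 and 0.99 ± 0.26 for CYP26B1. DHRS3 (0.71 ± 0.09), RARG (0.66 ± 0.19), RXRA (0.46 ± 0.16) and RARB (0.32 ± 0.14) also had positive values, and only RARA, at −0.41 ± 0.30, had a negative value, with overlapping libraries. From 3 to 12 days the values lay between −0.80 for CRABP1 and 0.36 for CYP26A1. There the libraries of RARA and RXRA alone did not overlap, both slightly lower at 12 days (−0.19 ± 0.09 and −0.14 ± 0.07). The share of all tested genes without overlap was not counted. None of the differences between SP times was run with the GC trend removed.

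The other genes of the route came from a list of 66, from retinol transport to retinoic acid response, of which 50 were expressed enough to be tested in the 24 h table and 51 in the 3 days table. They were tested with edgeR's quasi-likelihood test and Benjamini-Hochberg adjustment over all tested genes. This list too was chosen with earlier results of these data known, so its counts and p-values are not independent of that choice. At 3 h, 2 rose and 4 fell. At 24 h, 15 rose and 9 fell, after 3 days 16 rose and 17 fell, and after 12 days 15 rose and 18 fell. Over all tested genes the shares called were those given above. The median log2 fold change of the list was −0.09, 0.17, 0.12 and 0.05 in the 4 comparisons. Without control 24 h replicate 3 the 3 h count was 13 in place of 6.

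**Figure D4:**
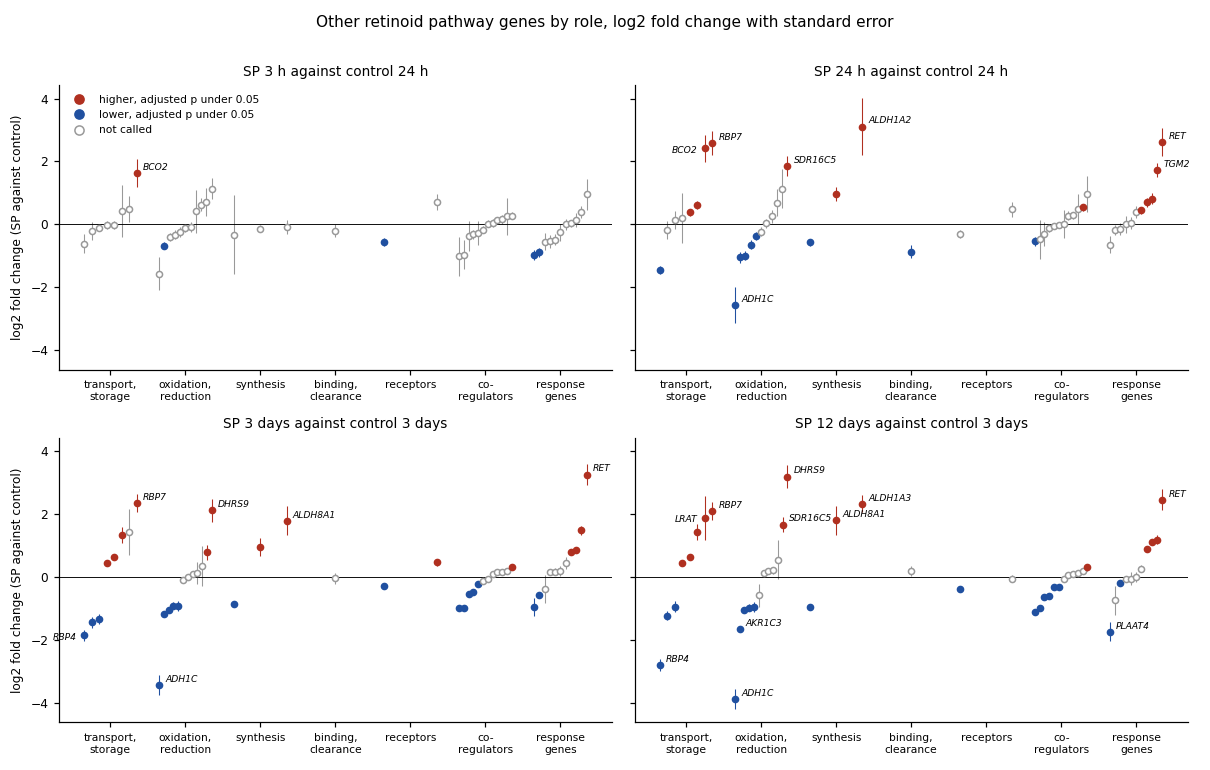
Log2 fold change with standard error of tested retinoid pathway genes other than the 10, leaving out those not reported here, grouped by role, in the 4 comparisons of SP with control, where red and blue points are genes called higher or lower at an adjusted p under 0.05 and open points were not called. Few genes are called at 3 h, and from 24 h on called genes lie on both sides of 0 in transport and storage, in synthesis and in oxidation and reduction.

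Enzymes of retinoic acid synthesis moved in opposite directions, with 3 of 4 tested in each table. At 3 h, 0 were called by edgeR, and 0 had an unadjusted p under 0.05. In each later comparison 2 were higher and 1 lower. ALDH1A1, the most abundant of the ALDH1A genes here per length, was at 7151, 7661 and 6228 CPM in the 24 h control and 4735, 4831 and 4660.2 CPM at SP 24 h, and fell (log2 fold change −0.56 ± 0.11, adjusted p = 0.00594 from edgeR). With the GC trend removed that call was lost (−0.26, adjusted p = 0.143). It fell also at 3 days (−0.85 ± 0.10, adjusted p = 2.63e-06) and 12 days (−0.94 ± 0.10, adjusted p = 8.48e-07), with no overlap between SP and control libraries, but was not called at 3 h (−0.13 ± 0.11). ALDH1A3, another enzyme of this step, rose from 43.1, 26.8 and 34.3 CPM to 87.1, 53.7 and 63.1 CPM at 24 h (log2 fold change 0.97 ± 0.22, adjusted p = 0.0118 from edgeR). In the 3 days table it went from 9.09, 9.96 and 9.69 CPM to 19.4, 19.1 and 16.5 CPM at 3 days and 51.0, 65.1 and 28.2 CPM at 12 days. The 12 days rise was 2.33 ± 0.28 (adjusted p = 0.000135 from edgeR). The 3 days rise of 0.94 ± 0.29 (adjusted p = 0.0241) was lost without any of the 3 control libraries or without SP 3 days replicate 1 or 2 (adjusted p up to 0.0772 from edgeR). Of its exons 1778 bp (33.3%) overlap other genes, mostly ALDH1A3-AS1 on the opposite strand.

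ALDH1A2, the third enzyme, was near the limit of detection, with 0, 3 and 2 reads in the 24 h control, 3, 1 and 0 at SP 3 h and 21, 23 and 22 at SP 24 h. It was called higher at 24 h (log2 fold change 3.11 ± 0.91, adjusted p = 0.0126 from edgeR) and did not pass the filter in the 3 days table, where it had 2 to 10 reads per control library. ALDH8A1, a retinaldehyde dehydrogenase, was tested in the 3 days table alone, is named after its values were seen and was not run under the alternatives. It rose at 3 days (1.78 ± 0.46, adjusted p = 0.00298 from edgeR) and at 12 days (1.80 ± 0.46, adjusted p = 0.00221), from 5, 6 and 2 reads in the control to 15, 16 and 11 and 16, 18 and 16 reads.

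**Figure D5:**
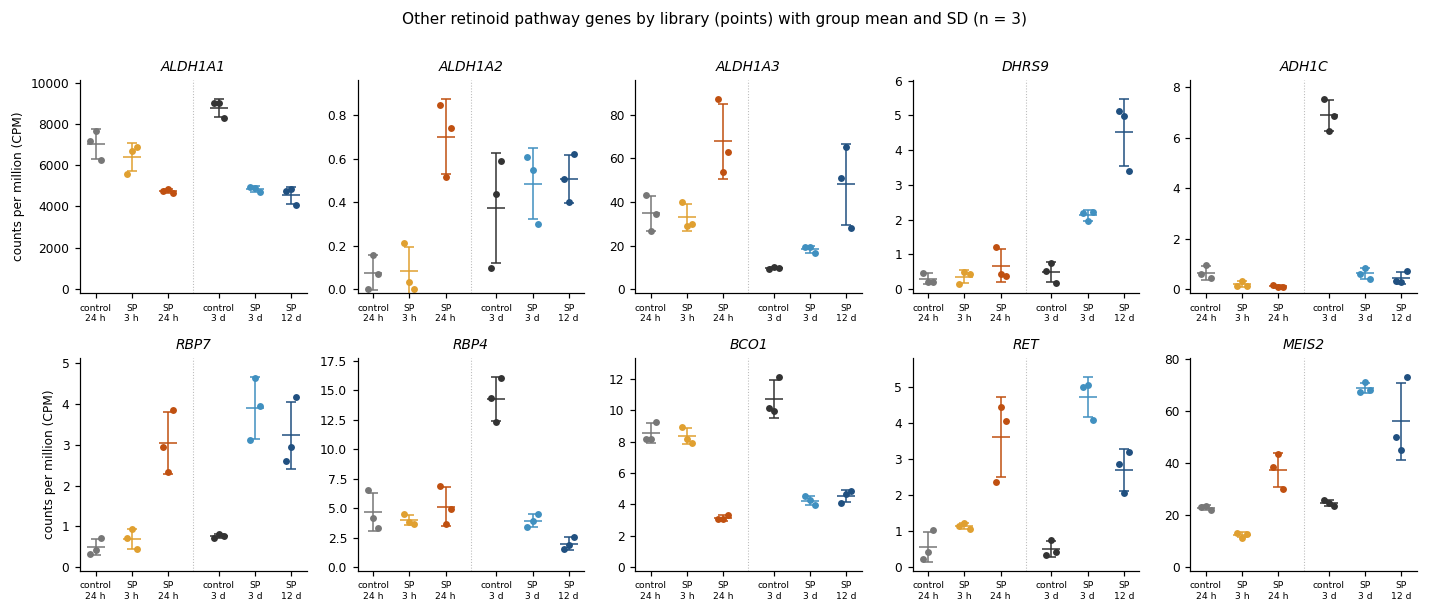
CPM of 10 other retinoid pathway genes in each of the 18 libraries (points), with the mean and SD of each group of 3, on linear axes that include 0 and with a dotted line between the 2 separately normalised tables. ALDH1A1, RBP4, BCO1 and ADH1C lie below the 3 days control at SP 3 and 12 days, and ALDH1A3, DHRS9, RBP7, RET and MEIS2 lie above it.

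Of the 17 genes of retinol oxidation and retinaldehyde reduction, 11 or 12 were tested. At 3 h, 0 were called higher and 1 lower, at 24 h 1 higher and 5 lower, and at 3 and 12 days 2 higher and 5 lower. The single call at 3 h was RDH14, a retinol dehydrogenase, at 23.2, 20.1 and 25.1 CPM against 39.7, 34.9 and 34.8 CPM (−0.68 ± 0.12, adjusted p = 0.00763 from edgeR). DHRS9, a retinol dehydrogenase of epithelia, rose from 0.526, 0.752 and 0.177 CPM in the 3 days control to 2.19, 1.95 and 2.21 CPM at 3 days and 5.12, 4.99 and 3.41 CPM at 12 days. On the log2 scale it rose by 2.12 ± 0.38 at 3 days (adjusted p = 0.000123 from edgeR) and 3.19 ± 0.36 at 12 days (adjusted p = 6.57e-07). ADH1C, an alcohol dehydrogenase that accepts retinol, fell from 7.51, 6.27 and 6.86 CPM to 0.610, 0.853 and 0.419 CPM and 0.316, 0.299 and 0.709 CPM, with log2 fold changes of −3.45 ± 0.31 at 3 days (adjusted p = 7.04e-08 from edgeR) and −3.89 ± 0.33 at 12 days (adjusted p = 2.02e-08). AKR1B10, a retinaldehyde reductase abundant in A549 cells, fell from 2952, 2837 and 2099 CPM to 1456, 1311 and 1186 CPM at 24 h (−0.997 ± 0.141, adjusted p = 0.00104 from edgeR). DHRS4 was lower at 24 h (−1.05 ± 0.17, adjusted p = 0.00197 from edgeR), and AKR1C3 was lower at 12 days (−1.66 ± 0.08, adjusted p = 2.70e-10). ADH1C, AKR1B10, AKR1C3 and DHRS4 have close paralogs, so their counts are uncertain where reads map to several genes. RDH14 shares 264 bp with the readthrough gene NT5C1B-RDH14.

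In retinol transport and storage, 9 of 11 genes were tested, and 1 was called higher at 3 h, 5 higher and 1 lower at 24 h, 5 higher and 3 lower at 3 days and 6 higher and 3 lower at 12 days. RBP7, which binds retinol inside the cell, rose from 0.318, 0.423 and 0.701 CPM to 2.95, 2.33 and 3.85 CPM at 24 h (2.59 ± 0.37, adjusted p = 0.000884 from edgeR) and from 0.717, 0.815 and 0.768 CPM to 3.11, 4.63 and 3.95 CPM at 3 days (2.34 ± 0.28, adjusted p = 2.90e-06). The secreted retinol carrier RBP4 went the other way, from 14.3, 12.3 and 16.1 CPM to 3.41, 3.90 and 4.49 CPM and 1.52, 1.90 and 2.57 CPM, a log2 fold change of −1.86 ± 0.17 at 3 days (adjusted p = 3.69e-07 from edgeR) and of −2.81 ± 0.19 at 12 days (adjusted p = 7.26e-09). RBP5 fell at 3 days (−1.45 ± 0.18, adjusted p = 8.00e-06 from edgeR), although 1572 bp (51.9%) of its exons overlap C1RL-AS1.

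The carotene cleaving enzymes, counted in the same group, differed from each other. BCO1, which splits carotene into retinaldehyde, fell from 8.15, 8.19 and 9.29 CPM to 3.03, 3.04 and 3.34 CPM at 24 h (−1.44 ± 0.13, adjusted p = 0.000125 from edgeR) and from 10.1, 9.96 and 12.1 CPM to 4.51, 4.27 and 3.95 CPM at 3 days (−1.34 ± 0.15, adjusted p = 1.75e-06). BCO2, which cleaves carotenoids off centre, rose from 0.582, 0.740 and 0.245 CPM to 0.847, 1.69 and 1.96 CPM at 3 h (1.63 ± 0.46, adjusted p = 0.0433 from edgeR) and 1.94, 3.36 and 2.63 CPM at 24 h (2.41 ± 0.44, adjusted p = 0.00284). The 3 h call of BCO2 was lost without any of the control or SP 24 h libraries or without SP 3 h replicate 2 or 3 (adjusted p up to 0.135 from edgeR), with replicate number as a block and in a fit of the 2 groups alone. Both genes share exons with others, over 408 bp (15.2%) in BCO1 and 932 bp (13.8%) in BCO2.

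Among further receptors, RXRB, a partner of the RARs like RXRA, stood at 29.3, 31.1 and 35.3 CPM in the 24 h control and 23.6, 20.3 and 21.2 CPM at SP 3 h, and fell (−0.56 ± 0.12, adjusted p = 0.0190 from edgeR). That call was lost in a fit of the 2 groups alone and without SP 3 h replicate 2 or 3. RXRB was at −0.30 ± 0.12 and not called at 24 h, but with the GC trend removed it was −0.62 and called lower. It fell at 3 days (−0.28 ± 0.09, adjusted p = 0.0197 from edgeR) and at 12 days (−0.40 ± 0.09, adjusted p = 0.00174), and the former call ended with no filter on low counts and on leaving out the third control library or the first SP 3 days library (adjusted p up to 0.0789 from edgeR). RXRG had 0 reads in all 18 libraries. FABP5, which carries retinoic acid to another receptor, fell at 24 h from 41.1, 25.9 and 33.3 CPM to 21.2, 15.2 and 18.7 CPM (−0.87 ± 0.21, adjusted p = 0.0136 from edgeR). Leaving out SP 24 h replicate 2 ended that call (adjusted p = 0.0644 from edgeR), and FABP5 was at −0.05 ± 0.17 at 3 days.

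All 12 receptor coregulators of the list were tested, and 0 were called at 3 h by edgeR in either direction, while 2 had an unadjusted p under 0.05. At 24 h, 1 rose and 1 fell, after 3 days 1 rose and 5 fell, and after 12 days 1 rose and 6 fell. The genes with the lowest values at 3 and 12 days, named after they were seen and not run under the alternatives, were the acetyltransferases CREBBP and EP300, which serve as RAR coactivators, and the coactivator NCOA2. CREBBP was at 117, 120.2 and 129 CPM in the 3 days control, 60.1, 57.9 and 65.5 CPM at 3 days and 52.3, 60.9 and 56.3 CPM at 12 days (−0.998 ± 0.0841 at 3 days, adjusted p = 1.30e-07 from edgeR, and −1.11 ± 0.08 at 12 days, adjusted p = 3.46e-08). EP300, which encodes p300, had 97.4, 97.5 and 107 CPM, 69.3, 60.2 and 75.3 CPM and 64.0, 69.3 and 60.8 CPM in the same groups (−0.56 ± 0.09, adjusted p = 0.000116 from edgeR, and −0.64 ± 0.09, adjusted p = 3.19e-05). NCOA2 was lower at 3 days (−0.99 ± 0.10, adjusted p = 8.42e-07 from edgeR) and at 12 days (−0.99 ± 0.10, adjusted p = 7.46e-07). At SP 24 h CREBBP averaged 92.3 CPM against 91.8 CPM in the 24 h control, EP300 95.2 against 68.35 CPM and NCOA2 35.5 against 51.6 CPM. Those controls ranged widely, from 45.3 to 149.9 CPM for CREBBP and from 30.5 to 113 CPM for EP300.

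Of 17 genes known to respond to retinoic acid, 12 were tested. At 3 h 1 rose and 2 fell, at 24 h 6 rose and 0 fell by edgeR, after 3 days 5 rose and 2 fell, and after 12 days 4 rose and 2 fell. RET, a receptor tyrosine kinase, rose from 0.212, 0.423 and 1.02 CPM to 2.35, 4.43 and 4.05 CPM at 24 h (2.61 ± 0.45, adjusted p = 0.00209 from edgeR), and from 0.335, 0.752 and 0.414 CPM to 5.00, 5.06 and 4.07 CPM at 3 days (3.26 ± 0.33, adjusted p = 2.21e-07) and 2.85, 2.05 and 3.19 CPM at 12 days (2.45 ± 0.33, adjusted p = 6.90e-06). MEIS2, a homeobox cofactor, fell at 3 h from 23.1, 23.5 and 21.9 CPM to 13.1, 11.3 and 12.8 CPM (−0.88 ± 0.15, adjusted p = 0.00523 from edgeR) and rose at 24 h to 38.3, 43.3 and 30.2 CPM (0.71 ± 0.14, adjusted p = 0.00634), and was also higher at 3 days (1.48 ± 0.14) and 12 days (1.19 ± 0.14). BHLHE40, a transcriptional repressor, fell at 3 h from 143, 181 and 202 CPM to 96.3, 99.6 and 71.6 CPM (−0.98 ± 0.16, adjusted p = 0.00535 from edgeR), and was at −0.19 ± 0.16 at 24 h. It fell again at 3 days (−0.57 ± 0.07, adjusted p = 1.11e-05 from edgeR) and at 12 days (−0.21 ± 0.07, adjusted p = 0.0248), where the call was lost with no filter on low counts and without control 3 days replicate 1 or 3 or SP 12 days replicate 1. PLAAT4 fell at 12 days from 4.30, 2.69 and 3.84 CPM to 0.885, 0.699 and 1.60 CPM (−1.74 ± 0.30, adjusted p = 0.000138 from edgeR). TGM2, a transglutaminase named after its values were seen, rose at 24 h (1.72 ± 0.22, adjusted p = 0.000631 from edgeR), at 3 days (0.79 ± 0.09, adjusted p = 5.19e-06) and at 12 days (0.88 ± 0.09, adjusted p = 1.41e-06). TGM2 was not run under the alternatives. Exons of BHLHE40 (451 bp), MEIS2 (431 bp) and TGM2 (396 bp) overlap genes on the opposite strand.

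Between the SP times, compared after the data had been seen, 12 of the 50 other pathway genes were higher and 4 lower at 24 h than at 3 h, where 11.7% and 8.40% of all genes were. From 3 to 12 days 5 of 51 were higher and 4 lower, beside 4.46% and 3.65% of all genes. ALDH1A3, at 1.39 ± 0.26, and DHRS9, at 1.08 ± 0.26, rose further between 3 and 12 days (edgeR adjusted p = 0.0154 and 0.0159), and RBP4 was lower (−0.95 ± 0.21, adjusted p = 0.0102).

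Genes whose levels over the 18 libraries were most like those of each of the 10 were found by Pearson correlation of log2 CPM less the mean of the control libraries of the same table, among 14085 genes or, for CRABP1, 14086. The libraries of a group share their treatment and the tables their controls, so the coefficients are a description. The levels were used without removal of the GC trend, and its part in the coefficients was not tested. For CRABP2 they were MGAT3 (r = 0.990) and HLA-F (0.986), and for CRABP1 SLC7A10 (0.972). For STRA6 they were OSMR (0.972) and TLE2 (0.971), and for DHRS3 SPACA6 (0.946) and UNK (0.945). The receptors were most like MIDEAS (0.981) and FBXL18 (0.977) for RARA, THAP1 (0.884) and DCP1B (0.868) for RARB, DAG1 (0.983) and CPT1A (0.978) for RARG and C15orf39 (0.981) and DAG1 (0.979) for RXRA. For CYP26B1 they were MAN2B1 (0.967) and SOX9 (0.961), and for CYP26A1 OTUB2 (0.948) and an unnamed gene (ENSG00000287185, 0.948). RARB had the lowest coefficients of the 10 genes, and RARG and RXRA shared DAG1.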

How the data were processed

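RNA was sequenced from 18 A549 libraries in 6 groups of 3. The authors prepared the libraries with the NEBNext Ultra kit, sequenced paired ends on a NovaSeq instrument, aligned reads to GRCh38 with STAR 2.7.9a and counted them per Ensembl gene with featureCounts. The authors deposited raw read counts in 2 tables, with no normalisation. Whether counting used strand, and how it treated reads with several positions, is not given in the sources used here.

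Genes were matched to GENCODE symbols (61369 of 61541). Counts were analysed with edgeR 4.0.16 in R 4.3.3: filterByExpr with a minimum count of 10, TMM factors and a robust quasi-likelihood fit with a term for the group over the 9 libraries of each table. Benjamini-Hochberg adjustment covered all tested genes, with 0.05 as the limit for a call. CPM use TMM-scaled library sizes, and CPM per kb divide by the summed exon length. Standard errors come from the same fit, whose median was 0.13 in the 3 days table and 0.20 in the 24 h table. Between 14187401 and 43765330 reads were counted per library. Counting intervals are exact at 95%.

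The 10 genes and the list of 66 others were chosen with earlier results of these data known. Of the 66, ALDH1A1, ALDH1A2, ALDH1A3, RXRB and RXRG are always named, as are, per comparison with control, the 4 called genes that rose most and the 4 that fell most, provided that 1 of the groups averaged 20 reads or more and the libraries did not overlap. Some genes that these rules name are not reported here. Genes most like a given gene were sought among those with a mean of at least 1 CPM in each table, on log2 CPM with a prior count of 2. Alternatives were DESeq2 1.42.0, its size factors, no filter, other prior counts, fits of 2 groups, a replicate block, the study's thresholds (adjusted p under 0.0001 and 2-fold), a per-library correction for GC content and length by smooth terms (mgcv 1.9.3), and each library left out. The study set its thresholds on DESeq2 output, and here they were applied to the edgeR fit. The comparisons between SP times were added after seeing the data. The fits were tested on simulated data.

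Libraries with the same number were correlated by their deviations from the group means. The correlations were 0.69, 0.25 and 0.71 for SP 24 h with its control, all above 0.1. SP 24 h replicate 2 correlated as much with control 24 h replicate 3 (0.25), and the labels state no pairing. Whether the numbers pair these libraries is therefore not known. The values given come from the fit without the block, and fits with it are alternatives, named beside a result where they change a call.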

Additional observations from a re-analysis of the deposited data

Results flagged for a closer look

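Genes of the retinoid list whose values at the 2 SP times of a table differed, by edgeR's test of the difference itself with Benjamini-Hochberg adjustment over all tested genes, are given here, in comparisons chosen after seeing the data. From SP 3 h to SP 24 h, ALDH1A2 (log2 difference 3.44, adjusted p = 0.0141), RBP7 (2.09, 0.00345), RET (1.67, 0.0175), MEIS2 (1.59, 0.000398), ALDH1A3 (1.05, 0.0122) and BHLHE40 (0.78, 0.0102) were higher at 24 h. In the same comparison BCO1 (−1.41, 0.000398), DHRS4 (−0.81, 0.011), AKR1B10 (−0.67, 0.0111) and ALDH1A1 (−0.43, 0.027) were lower at 24 h. From SP 3 days to SP 12 days, ALDH1A3 (1.39, 0.0154), DHRS9 (1.08, 0.0159) and BHLHE40 (0.36, 0.0074) were higher and RBP4 (−0.95, 0.0101), RET (−0.80, 0.0368) and AKR1C3 (−0.49, 0.00131) lower. MEIS2 was called lower than control at 3 h and higher at 24 h.

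CYP26A1 lay below the 3 controls in every SP 3 h library and above them in every SP 24 h library, a log2 difference of 1.42 between the SP times. Against control, CYP26A1 was not called at 3 h. The fit called CYP26A1 higher at 24 h than at 3 h, and no p is given, since the genes were chosen on the comparisons with control that share these libraries.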

How the results depend on the processing

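With the thresholds of the study, 0, 1, 2 and 2 of the 10 genes were called in the comparisons at 3 h, at 24 h, after 3 days and after 12 days, in place of 4, 8, 9 and 7, and 0, 0, 9 and 13 of the other pathway genes, in place of 6, 24, 33 and 33. Those thresholds called 0 and 119 of all 17377 tested genes at 3 h and 24 h. At 3 and 12 days they called 1500 and 1620 of 17775. Beside the counts of 0 from edgeR, 16 and 27 of the other pathway genes had an unadjusted p under 0.05 at 3 h and 24 h, and DESeq2 called 4 and 7 genes at 3 h and 9 and 25 at 24 h at an adjusted p under 0.05. With the trend with GC content and length removed, 11 other pathway genes were called at 3 h and RXRA at 3 days turned from 0.24 to −0.13 on the log2 scale, and RARA and RARG at 3 days fell to 0.14 and 0.01. Calls over all tested genes at 3 h went from 1999 to 3101 with that trend removed. With each library left out in turn, 3 to 4 of the 10 genes were called at 3 h, 4 to 9 at 24 h, 7 to 9 at 3 days and 6 to 8 at 12 days, and 4 to 13, 19 to 29, 31 to 37 and 31 to 37 of the others. Over all tested genes these fits called 941 to 2209, 2796 to 6618, 7264 to 10413 and 7615 to 9924. The cause of these shifts was not tested, except that the study's thresholds are stricter by construction and the trend removed was that with GC content and length. Other settings kept the 8 counts within 1.5 times.

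With replicate number as a block over the 9 libraries of a table, 3, 7, 9 and 7 of the 10 genes and 5, 25, 34 and 34 of the other pathway genes were called. Of all tested genes 1917, 5044, 8814 and 9062 were called. At 24 h the counts were 9 and 25 with the block in a fit of control 24 h and SP 24 h alone. With the block and the GC trend removed over all 9 libraries they were 6 and 23. Both fits were chosen after seeing the data, and they called 6549 of 17084 and 6452 of 17377 tested genes. In the other comparisons the correlations by number were not all above 0.1. They were −0.26, −0.11 and −0.79 at 3 h, 0.06, 0.02 and 0.37 at 3 days and 0.05, −0.02 and 0.04 at 12 days. Depth limits genes counted from few reads, CRABP1, ALDH1A2 and ADH1C among them.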

Other observations

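Besides RARB and CYP26A1, 27 genes held a DR5 of the half-sites used above in a RefSeq promoter window. The list was made from sequence alone, after the data had been seen, and it has no test of its own. Of these genes 17 were listed in the tables, and 10 were tested at 3 h and 24 h and 11 at 3 and 12 days. At 3 h, 0 were called by edgeR, and 2 had an unadjusted p under 0.05. At 24 h, 3 rose and 1 fell, after 3 days 3 rose and 1 fell, and after 12 days 3 rose and 2 fell. Of all tested genes 16.8% were called higher and 12.0% lower at 24 h, 25.2% and 23.3% at 3 days and 26.4% and 23.4% at 12 days. TRIM31, a ubiquitin ligase, was at 0.12 ± 0.31 (log2 fold change ± SE) at 3 h and rose by 2.24 ± 0.28 at 24 h (adjusted p = 0.000469 from edgeR), by 1.10 ± 0.17 at 3 days and by 0.55 ± 0.17 at 12 days. CFLAR, an inhibitor of caspase activation, was at −0.55 ± 0.17 at 3 h (adjusted p = 0.0747 from edgeR) and lower at 24 h (−1.04 ± 0.17, adjusted p = 0.00234), at 3 days (−0.91 ± 0.11) and at 12 days (−0.32 ± 0.10). The median log2 fold change of the tested genes was 0.10, 0.34, −0.08 and 0.24 in the 4 comparisons.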
